A study of Rattus norvegicus with 8 samples.

Results

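The genes for the proteins of the mitochondrial ribosome were followed in the orbitofrontal cortex of adult male Sprague-Dawley rats given an siRNA against the circular RNA circNrxn3 or a scrambled siRNA. Members were the protein-coding rows of the deposited count table whose symbol starts with Mrpl or Mrps followed by a digit. This rule took 75 gene models of the 34298 in the table, 46 for the large subunit and 29 for the small subunit, and they carry 73 symbols because Mrpl36 and Mrpl53 each have 2 models. The tested animals (n = 4, replicates 1, 2, 3 and 4) had received 5 ng of an siRNA to the backsplice junction of circNrxn3, a circle made from the neurexin 3 gene. The controls (n = 4, replicates 1, 3, 4 and 5) had received 5 ng of scrambled siRNA. Rats of both groups were 8 weeks old on arrival, had the siRNA infused into the orbitofrontal cortex in 1 µl with the JetPEI transfection reagent, and were killed 7 days later. The sequenced RNA came from dissected tissue and holds every cell type there, whether or not a cell took up siRNA. The circle has no poly-A tail, so libraries of poly-T selected RNA do not measure the knockdown itself.

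The mitochondrial ribosome translates the few messages of the mitochondrial genome, which encode core subunits of the respiratory chain and the ATP synthase. Its RNAs are made inside the organelle, whereas all its proteins are encoded in the nucleus, translated in the cytosol and imported. The small subunit reads the message, the large subunit forms the peptide bonds, and proteins inherited from the bacterial ancestor sit beside others found only in mitochondria. Neurons draw much of their ATP from respiration, and the cortex depends on this second translation system.

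Total counts per library ran from 27589883 to 35221782, of which the members took 0.324% to 0.379%. Markers of excitatory neurons, inhibitory neurons, astrocytes, oligodendrocytes, microglia and endothelium were counted in all 8 libraries. Summed CPM (read counts scaled to a common library total) of the neuron markers spanned 2036 to 2528 in circNrxn3 siRNA animals and 2321 to 2837 in scrambled siRNA animals for excitatory cells. The median log2 fold change of the markers was 0.06 for excitatory neurons, −0.04 for inhibitory neurons, −0.12 for astrocytes, 0.14 for oligodendrocytes, 0.01 for microglia and 0.10 for endothelium. All 5 measured markers of red blood cells had log2 fold changes below 0 with a median of −1.14, and their summed level was 576 ± 173 CPM in circNrxn3 siRNA animals and 1277 ± 802 CPM in scrambled siRNA animals (SD, n = 4 each; exact 2-sided permutation p = 0.0857). The part of blood content in the results below was not tested.

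Promoters are shown first because several members share known regulatory words near their starts. RefSeq windows on the GRCr8 assembly ran from 250 bases before to 50 bases after the start. They matched 56 of the 71 members that have a single gene model. Each symbol entered with a single window, the first listed. The windows of all genes were not limited to genes tested here, whereas these members all were, so the shares below compare unlike sets. The letters CGCATGCG, the core of the site bound by nuclear respiratory factor 1 (NRF1, a regulator of nuclear genes for mitochondria), were found on either strand in 6 of 56 member windows (10.7%), against 1.81% of 27457 windows of all genes. They began 19 to 131 bases before the start. Those 6 windows follow with 20 flanking bases on each side, 5′ to 3′ along the gene's strand, and capitals mark the motif.
Mrpl10 (chr10:82522370-82522417, plus strand): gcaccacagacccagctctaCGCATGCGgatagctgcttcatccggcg
Mrpl17 (chr1:169575726-169575773, minus strand): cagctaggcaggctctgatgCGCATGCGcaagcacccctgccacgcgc
Mrpl22 (chr10:42845862-42845909, plus strand): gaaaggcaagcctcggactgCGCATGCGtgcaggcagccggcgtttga
Mrpl32 (chr17:55260570-55260617, plus strand): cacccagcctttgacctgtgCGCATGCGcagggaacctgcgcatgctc
Mrpl44 (chr9:88554899-88554946, plus strand): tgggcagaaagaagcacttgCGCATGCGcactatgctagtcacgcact
Mrps18b (chr20:2842967-2843014, plus strand): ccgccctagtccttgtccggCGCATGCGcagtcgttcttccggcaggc

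The letters AAGATGGCG, a YY1 word, were found on either strand in 8 of 56 member windows (14.3%), against 1.93% of all windows. YY1 is a zinc finger factor that binds close to the starts of many housekeeping genes. In these members the word began 0 to 30 bases after the start. No NRF1, ETS or YY1 match overlapped a match of another motif searched in these windows. The windows of 7 of them follow in the same form and are cut where the promoter table ends, and the eighth, Mrpl46, is given whole in the paragraph after.
Mrpl37 (chr5:127074933-127074981, minus strand): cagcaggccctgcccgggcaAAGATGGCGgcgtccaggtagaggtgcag
Mrpl42 (chr7:32028475-32028523, minus strand): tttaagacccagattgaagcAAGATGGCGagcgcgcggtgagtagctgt
Mrpl50 (chr5:68668038-68668081, minus strand): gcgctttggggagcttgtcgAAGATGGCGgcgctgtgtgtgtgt
Mrps10 (chr9:21122404-21122443, minus strand): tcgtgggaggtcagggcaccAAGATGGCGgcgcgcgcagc
Mrps18a (chr9:22367352-22367400, minus strand): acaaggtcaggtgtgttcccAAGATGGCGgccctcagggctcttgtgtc
Mrps27 (chr2:32474213-32474253, plus strand): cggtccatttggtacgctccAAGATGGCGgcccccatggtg
Mrps30 (chr2:52195858-52195906, minus strand): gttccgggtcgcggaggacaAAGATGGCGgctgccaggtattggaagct

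Mrpl46 and Mrps11 encode a protein of each subunit and are read away from each other, with starts 72 bp apart in the rn6 models of the count table. Their 300-base RefSeq windows share 267 bases, so most of the stretch lies in the windows of both a large and a small subunit gene. The Mrpl46 window is shown, with the YY1 word in capitals. That word lies outside the 267 shared bases, and the Mrps11 window holds no YY1 word.
Mrpl46 (chr1:142116981-142117280, minus strand): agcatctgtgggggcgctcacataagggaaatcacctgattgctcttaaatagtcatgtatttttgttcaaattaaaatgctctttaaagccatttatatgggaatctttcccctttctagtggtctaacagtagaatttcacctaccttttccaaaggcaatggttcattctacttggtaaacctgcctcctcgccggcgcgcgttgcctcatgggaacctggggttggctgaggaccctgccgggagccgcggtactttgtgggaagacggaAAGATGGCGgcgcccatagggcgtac

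The letters CCGGAAGT, bound by ETS factors such as GABP, were in 7 of 56 member windows (12.5%), against 4.01% of all windows. Those genes were Mrpl3, Mrpl27, Mrpl48, Mrpl52, Mrps18c, Mrps26 and Mrps27, and Mrps27 held the YY1 word too. GGGCGG was in 48.2% of member windows and 34.9% of all windows, CCAAT in 42.9% and 37.7%, and TATAAA in 12.5% and 14.3%. A match describes letters and says nothing of binding in this tissue. Log2 fold changes of circNrxn3 siRNA over scrambled siRNA had a median of −0.05 in the 20 genes with an NRF1, ETS or YY1 word and −0.09 in the 36 without.

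Starts facing another coding gene within 1000 bp on the opposite strand were found for 21 of 71 members (29.6%), against 1371 of 14437 coding genes tested (9.50%). The neighbours include other genes for mitochondria. Mrps12 starts 16 bp away from Sars2, the mitochondrial seryl-tRNA synthetase, Mrpl43 starts 47 bp away from Peo1, the helicase of mitochondrial DNA, and Mrpl47 starts 266 bp away from Ndufb5, a complex I subunit. Mrps27, a small subunit protein, faces Ptcd2, which acts in mitochondrial RNA processing, at 67 bp. Others face genes with work elsewhere, such as Mrpl32 with the proteasome subunit Psma2 at 192 bp and Mrpl18 with the chaperonin subunit Tcp1 at 372 bp. The members lie on 18 chromosomes, with 13 models on chromosome 1 and 11 on chromosome 10.

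Levels are given first as FPKM, which the authors scaled by gene length, so that genes can be set side by side. Large subunit genes with a single model had a median of 41.3 FPKM over all 8 libraries and small subunit genes 31.7 FPKM, against 5.43 FPKM for all 16573 genes tested. The highest large subunit gene was Mrpl33, a small ribosomal protein of bacterial descent, at 231 FPKM. Ranks by FPKM depend on the length of the gene model, which is 236 bp for Mrpl33. Mrpl54, a mitochondria-specific protein at the base of the stalk, followed at 150.0 FPKM, and Mrpl17, at the exit of the peptide tunnel, at 129.7 FPKM. At the low end stood Mrpl1 at 2.01 FPKM, the Mrpl36 model on chromosome 1 that passed the filter at 3.54 FPKM, and Mrpl47 at 5.06 FPKM.

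Among genes with small subunit symbols the range was narrower. Mrps18a, whose product is a paralog of bacterial S18 and sits in the large subunit despite its symbol, was highest at 102 FPKM. It was followed by the mitochondria-specific Mrps34 at 92.2 FPKM and Mrps25 at 86.8 FPKM. Mrps10, a protein of the head of the small subunit, was lowest at 12.9 FPKM, with Mrps2 at 13.9 FPKM and Mrps31 at 16.2 FPKM. The Mrps2 model is 4125 bp long, and its mean CPM was 56.5 in circNrxn3 siRNA and 58.9 in scrambled siRNA animals. For Mrps10 the mean CPM was 16.9 and 15.2. Mrps30, the other large subunit protein with an S symbol, averaged 33.0 FPKM.

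**Figure D1:**
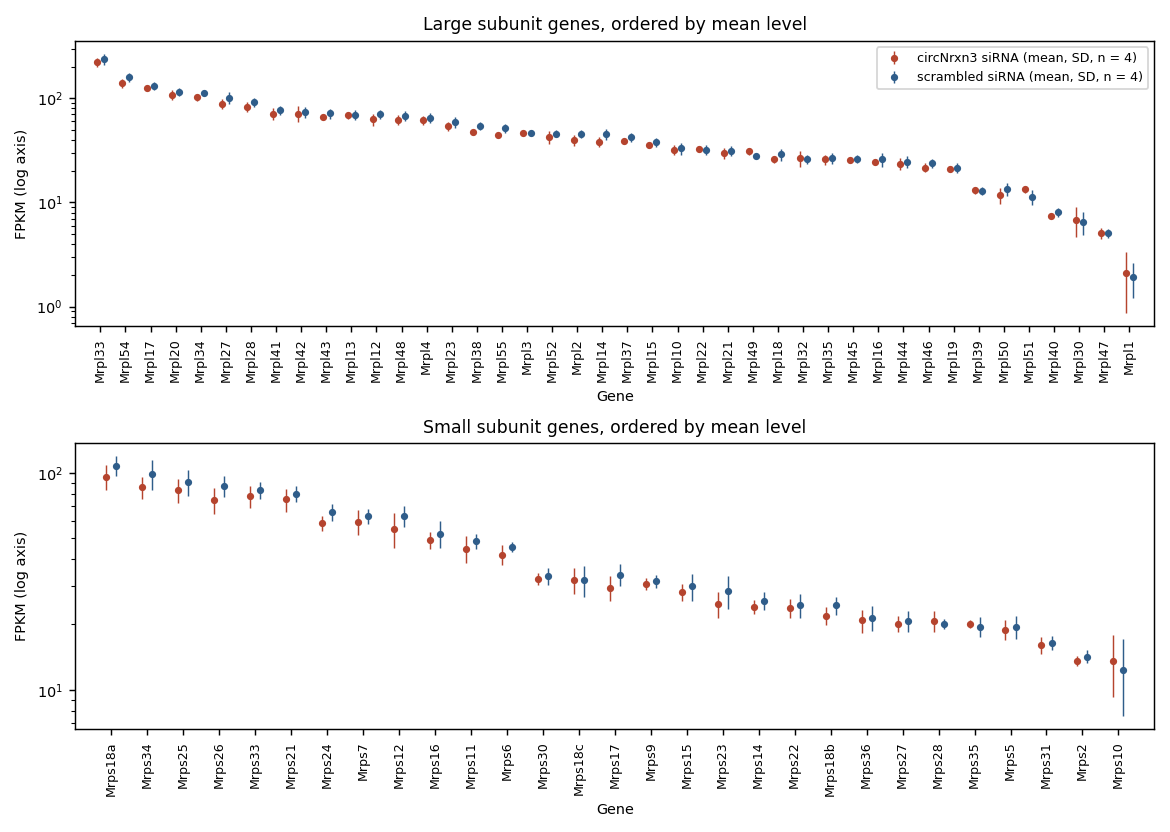
Mean FPKM (log axis) with SD of each single-model large subunit gene (top) and small subunit gene (bottom) in circNrxn3 siRNA and scrambled siRNA animals (n = 4 each), ordered by mean level. Large subunit genes span 2.01 FPKM (Mrpl1) to 231 FPKM (Mrpl33) and small subunit genes 12.9 FPKM (Mrps10) to 102 FPKM (Mrps18a).

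The plot of levels by gene shows a spread within groups that was small for most genes. The median coefficient of variation within groups was 9.95% in the large and 10.7% in the small subunit, and 3 of 71 genes exceeded 20% (Mrpl1, Mrpl30 and Mrps10). Mrps10 had the largest in the small subunit. It measured 10.8, 16.9, 16.0 and 23.7 CPM in circNrxn3 siRNA replicates 1, 2, 3 and 4, against 13.7, 11.6, 23.8 and 11.8 CPM in scrambled siRNA replicates 1, 3, 4 and 5. Replicate 4 was the highest library in both groups, and the groups overlapped.

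The question the design poses is which messages differ in the cortex after the siRNA against circNrxn3. No member passed an edgeR quasi-likelihood test at an adjusted p of 0.05, 0 of 44 large subunit and 0 of 29 small subunit models, and neither did any of the 16573 genes tested (0%, smallest adjusted p = 0.833). At an unadjusted p under 0.05 there were 3 members, all of the large subunit and lower in circNrxn3 siRNA animals (Mrpl38, Mrpl53 and Mrpl55), against 926 genes of the background (5.59%, with 3.2% lower and 2.38% higher). DESeq2 called 18 genes and none of the members, 38 of which it gave no adjusted p, and limma-voom called 0. In whole tissue, fewer cells of a type and less RNA per cell cannot be told apart.

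The direction was shared by most members, with small sizes. Of the 44 large subunit models tested, 34 had a log2 fold change below 0 and 10 above, with a median of −0.08. In the small subunit 25 were below 0 and 4 above, also with a median of −0.08. Over all genes tested the median was 0.0066 and 48.7% were below 0. Among single-model members, fold changes ran between −0.23 and 0.24 in the large subunit and between −0.21 and 0.14 in the small, none beyond 0.25 in size, and their median standard error was 0.10. Genes of 1 ribosome varied together across libraries, as given further on, so these counts are not independent observations.

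**Figure D2:**
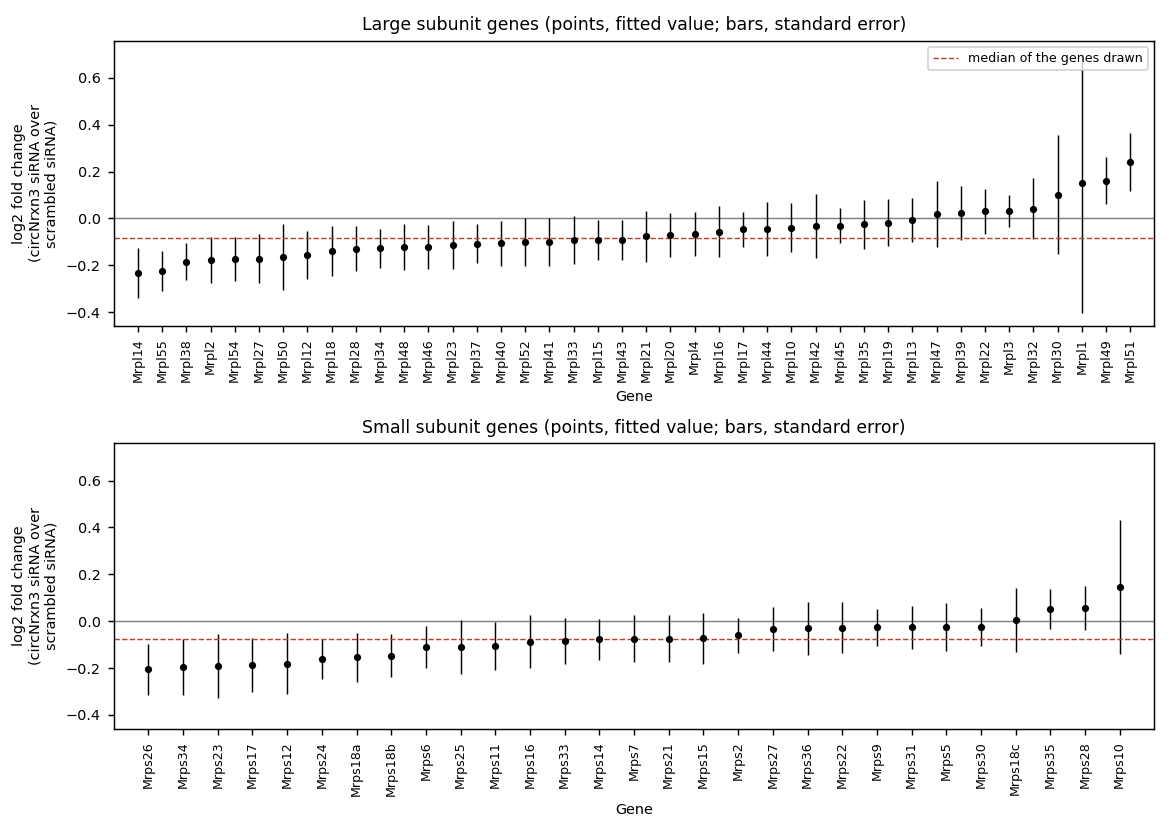
Fitted log2 fold change of circNrxn3 siRNA over scrambled siRNA for each single-model large subunit gene (top) and small subunit gene (bottom), with standard error bars, ordered by size. In the large subunit 33 points lie below 0 and 9 above, and in the small subunit 25 and 4, with dashed medians of −0.08 in both.

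Within the large subunit, Mrpl55, a protein found in animal mitochondrial ribosomes, had the smallest p of the single-model members. It measured 43.2, 39.5, 43.0 and 42.8 CPM in circNrxn3 siRNA replicates 1, 2, 3 and 4, against 42.8, 48.1, 51.7 and 54.1 CPM in scrambled siRNA replicates 1, 3, 4 and 5. The circNrxn3 siRNA animals reached no higher than 43.2 CPM, but scrambled siRNA replicate 1 lay within their range. The log2 fold change was −0.22 (standard error 0.09, unadjusted p = 0.0244, edgeR adjusted p = 0.833).

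Mrpl38, a mitochondria-specific protein of the central protuberance, was the next single-model gene. Its level was 57.9, 64.2, 65.6 and 62.0 CPM in circNrxn3 siRNA replicates 1, 2, 3 and 4, against 63.4, 72.6, 77.2 and 70.3 CPM in scrambled siRNA replicates 1, 3, 4 and 5. Scrambled siRNA replicate 1 again lay among the circNrxn3 siRNA animals, and the other 3 scrambled siRNA animals lay above all 4 of them. The log2 fold change was −0.18 (standard error 0.08, unadjusted p = 0.0406, edgeR adjusted p = 0.833). Genes listed for the central protuberance, the crown of the large subunit that faces the small one, were Mrpl18, Mrpl38, Mrpl40, Mrpl46 and Mrpl48. All 5 had values below 0, with a median of −0.12 and none called. Mrpl18, the second by p, was at −0.14 (standard error 0.11).

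Mrpl14, which sits on the face toward the small subunit and in human cells binds the assembly factor MALSU1, had the most negative fold change of the single-model genes. It measured 34.5, 29.5, 38.3 and 35.1 CPM in circNrxn3 siRNA replicates 1, 2, 3 and 4, against 34.4, 42.2, 45.3 and 39.5 CPM in scrambled siRNA replicates 1, 3, 4 and 5. Replicate 2 was lowest among the circNrxn3 siRNA animals and scrambled siRNA replicate 4 highest, with overlap in between. Its log2 fold change was −0.23 (standard error 0.11). Mrpl51, a mitochondria-specific protein, lay at the other end of the range. It measured 31.3, 35.9, 31.3 and 29.6 CPM in circNrxn3 siRNA replicates 1, 2, 3 and 4, against 32.6, 22.4, 24.4 and 29.1 CPM in scrambled siRNA replicates 1, 3, 4 and 5. Its highest value was in circNrxn3 siRNA replicate 2, the library lowest for 38 of 71 members, and its log2 fold change was 0.24 (standard error 0.12).

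The stalk, which recruits translation factors, was represented by Mrpl10, Mrpl12, Mrpl53 and Mrpl54, all below 0 with a median of −0.17 (Mrpl53 is described apart). Mrpl54 measured 82.9, 77.6, 97.7 and 89.2 CPM in circNrxn3 siRNA replicates 1, 2, 3 and 4, against 84.2, 103, 104 and 101 CPM in scrambled siRNA replicates 1, 3, 4 and 5. Scrambled siRNA replicate 1 was low at 84.2 CPM and the other 3 scrambled siRNA animals were close to each other. The log2 fold change of Mrpl54 was −0.17 (standard error 0.09). Mrpl2 and Mrpl27, which lie near the peptidyl transferase centre, were at −0.18 (standard error 0.10) and −0.17 (standard error 0.10). Proteins listed for the tunnel exit, where the new peptide leaves toward the inner membrane, had 4 of 7 genes below 0 with a median of −0.03. Mrpl17 there was at −0.05 (standard error 0.07) and Mrpl23 at −0.11 (standard error 0.10).

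By descent, large subunit genes of bacterial type had 20 of 27 below 0 (median −0.07) and mitochondria-specific ones 14 of 17 (median −0.10). In the small subunit the split was 13 of 16 (median −0.08) and 9 of 10 (median −0.10). No gene of these 4 lists was called, and no difference between them was tested.

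The small subunit gave no member under an unadjusted p of 0.05. Mrps26, a mitochondria-specific protein, had the most negative value. It measured 65.6, 63.7, 81.7 and 81.8 CPM in circNrxn3 siRNA replicates 1, 2, 3 and 4, against 75.5, 92.2, 91.3 and 78.6 CPM in scrambled siRNA replicates 1, 3, 4 and 5. CircNrxn3 siRNA replicates 1 and 2 were the lowest of the 8 libraries, while replicates 3 and 4 lay within the scrambled siRNA range. The log2 fold change was −0.21 (standard error 0.11). Mrps24, the S3 homolog near the entry of the message, measured 51.6, 46.3, 55.1 and 54.3 CPM in circNrxn3 siRNA replicates 1, 2, 3 and 4, against 53.2, 59.4, 64.4 and 54.9 CPM in scrambled siRNA replicates 1, 3, 4 and 5. Replicates 3 and 4 of the circNrxn3 siRNA group lay within the scrambled siRNA range, and the fold change on the log2 scale was −0.16 (standard error 0.09).

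Mrps12, the homolog of the bacterial decoding-centre protein S12, averaged 40.2 ± 7.21 CPM in circNrxn3 siRNA animals and 45.6 ± 4.86 CPM in scrambled siRNA animals (SD, n = 4 each), with a log2 fold change of −0.18 (standard error 0.13). For Mrps34 the means were 78.0 ± 8.75 CPM in circNrxn3 siRNA animals and 89.4 ± 13.6 CPM in scrambled siRNA animals (SD, n = 4 each), at −0.20 (standard error 0.12). Mrps17, an S17 homolog, averaged 39.0 ± 5.20 CPM in circNrxn3 siRNA animals and 44.4 ± 4.97 CPM in scrambled siRNA animals (SD, n = 4 each), at −0.19 (standard error 0.12). These differences were of about the size of the spread within groups or somewhat larger, and none passed the test. Mrps23 was at −0.19 (standard error 0.14), Mrps18b at −0.15 (standard error 0.09) and Mrps18a at −0.15 (standard error 0.11). The other large subunit protein with an S symbol, Mrps30, was at −0.02 (standard error 0.08). Mrps36, a small subunit member by its symbol that was named after its value was seen, was at −0.03 (standard error 0.11). RefSeq lists it under Kgd4, a component of the 2-oxoglutarate dehydrogenase complex.

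The groups did not overlap for 1 of the 73 members tested, Mrpl49, against 3.48% of all genes tested (1.82% higher and 1.65% lower). This gene was chosen after its values were seen. Mrpl49, a mitochondria-specific large subunit protein, measured 15.4, 17.7, 15.6 and 15.3 CPM in circNrxn3 siRNA replicates 1, 2, 3 and 4, against 14.4, 14.5, 13.6 and 14.6 CPM in scrambled siRNA replicates 1, 3, 4 and 5. Each of the 4 circNrxn3 siRNA animals was above each scrambled siRNA animal, by as little as 15.3 against 14.6 CPM. The log2 fold change was 0.16 (standard error 0.10, unadjusted p = 0.136, edgeR adjusted p = 0.833). The gene overlaps Syvn1 on the opposite strand by 551 bp, and Syvn1 held 24793 counts over the 8 libraries. Since the sources used here do not say whether strand was used in counting, reads of the overlap cannot be assigned. In all, 9 members overlap a counted coding gene on the opposite strand, among them Mrpl43 (with Peo1), Mrpl47 (with Actl6a), Mrps2 (with RGD1306233) and Mrps18a (with Rsph9).

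The members varied together from library to library, which the heat map of single genes shows. Among 71 genes, scrambled siRNA replicate 4 was the highest library for 31 and scrambled siRNA replicate 3 for 25. At the low end, circNrxn3 siRNA replicate 2 was the lowest library for 38 genes, circNrxn3 siRNA replicate 1 for 11 and scrambled siRNA replicate 1 for 10. Deviations from the group means gave a median pairwise Pearson r of 0.48 among large subunit genes, 0.65 among small subunit genes and 0.57 between the subunits, against −0.00029 over all pairs of genes tested. These r values describe genes that share 8 libraries and are given with no test. Cytosolic ribosomal protein genes, by mean log2 CPM centred on each gene's mean, were also lowest in circNrxn3 siRNA replicate 2 (−0.20). They were highest in scrambled siRNA replicate 4 (0.20). Nuclear genes for oxidative phosphorylation were lowest (−0.19) and highest (0.11) in the same libraries. Pairwise r was not measured in those families.

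**Figure D3:**
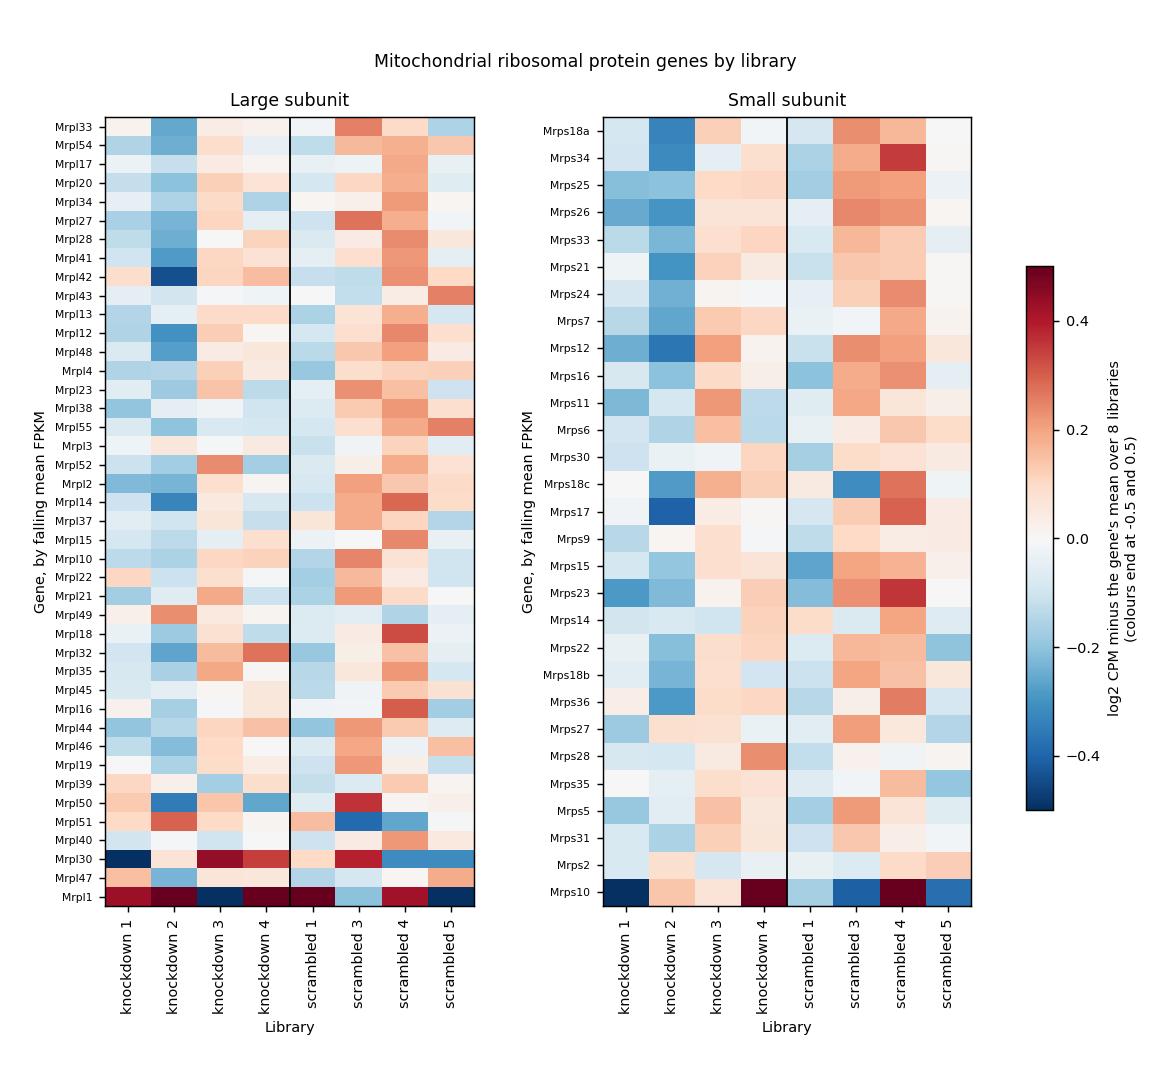
Log2 CPM of each single-model gene minus its mean over the 8 libraries, for the large subunit (left) and the small subunit (right), with circNrxn3 siRNA libraries (knockdown) left of the black line and scrambled siRNA libraries right of it. Columns share a colour for most genes, and circNrxn3 siRNA replicate 2 is lowest for 38 of 71 genes and scrambled siRNA replicate 4 highest for 31.

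Summed over members, the large subunit stood at 2026 ± 143 CPM in circNrxn3 siRNA animals and 2154 ± 160 CPM in scrambled siRNA animals (SD, n = 4 each). The small subunit stood at 1346 ± 117 CPM in circNrxn3 siRNA animals and 1435 ± 126 CPM in scrambled siRNA animals (SD, n = 4 each). Both differences were smaller than the SD of either group. The sums of the 2 subunits kept nearly the same proportion in every library. Large over small was 146% to 153% over the 8 libraries, with a mean of 150.7% in circNrxn3 siRNA animals and 150.2% in scrambled siRNA animals.

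A measure of the balance between long and short messages moved with the members. The mean centred log2 CPM of genes over 3486 bp minus that of genes under 1372 bp was 0.08, 0.15, −0.05 and 0.0048 in circNrxn3 siRNA replicates 1, 2, 3 and 4, against 0.06, −0.08, −0.15 and −0.01 in scrambled siRNA replicates 1, 3, 4 and 5 (exact 2-sided permutation p = 0.2). The library highest on it, circNrxn3 siRNA replicate 2, had the lowest summed member levels, and the lowest on it, scrambled siRNA replicate 4, had the highest. Member models are short, with a median length of 1110 bp against 2215 bp for all genes tested. Without the 3 libraries lowest on the measure (circNrxn3 siRNA replicate 3 and scrambled siRNA replicates 3 and 4), the median log2 fold change was −0.03 in the large and −0.01 in the small subunit. Those scrambled siRNA libraries were the highest for 25 and 31 of 71 members, and circNrxn3 siRNA replicate 3 for 4. Leaving them out therefore lowers the scrambled siRNA level, and this fit cannot tell that apart from the length balance. Removing each library's length trend left medians of −0.07 and −0.07, with −0.03 over all genes. The part of message length in the member values was not tested further.

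**Figure D4:**
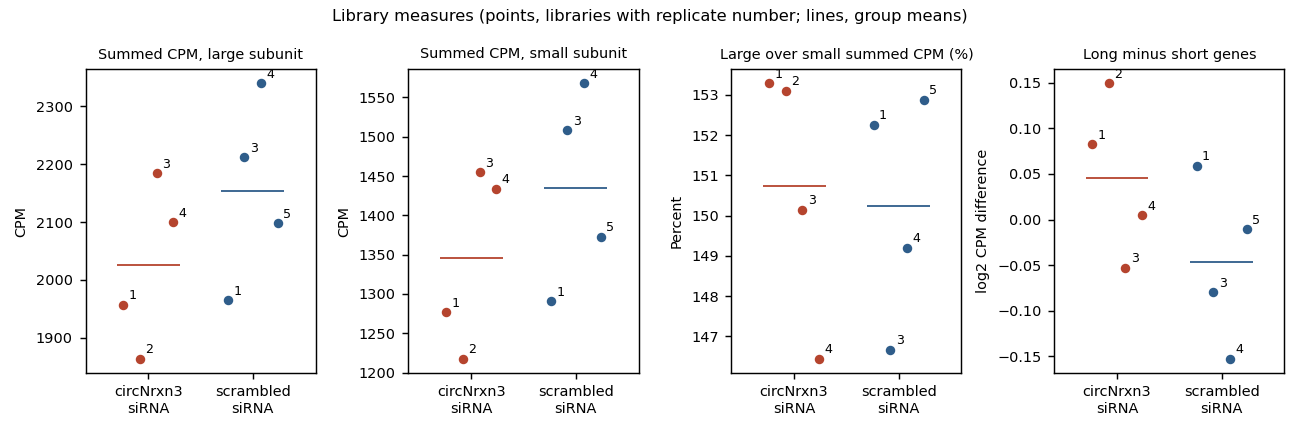
Summed CPM of large and small subunit genes, their ratio in percent, and the log2 CPM difference of long minus short genes, with 1 point per library (replicate number beside it) and lines at the group means. The sums overlap between groups, the ratio stays within 146% to 153%, and circNrxn3 siRNA replicate 2 is lowest in both sums and highest in the length measure.

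Single libraries weighed on the medians. Without scrambled siRNA replicate 4 they were −0.05 in the large and −0.03 in the small subunit, and without circNrxn3 siRNA replicate 2 they were −0.04 and −0.03. Without circNrxn3 siRNA replicate 3 they were −0.12 and −0.14, and without scrambled siRNA replicate 1 they were −0.11 and −0.12. At an unadjusted p under 0.05 there were 0 of 73 members without circNrxn3 siRNA replicate 2 (575 of 16850 genes in all). Without scrambled siRNA replicate 4 there were 0 of 73 (650 of 16767 genes). There were 12 of 73 members without circNrxn3 siRNA replicate 3 (1539 of 16888 genes) and 11 of 73 without scrambled siRNA replicate 1 (1697 of 16846 genes). Leaving out 1 of the other 4 libraries gave 1 or 2 members, with 543 (of 16745) to 804 (of 16881) genes in all. No member passed the adjusted threshold in any of these fits.

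Members at higher FPKM tended to have more negative values. Across the 71 single-model genes, Spearman's rho between log2 fold change and mean FPKM was −0.52, with −0.45 in the large and −0.66 in the small subunit, and rho with gene length was 0.25. FPKM is divided by gene length, so these rhos are not separate measures, and level apart from length was not tested. The genes share libraries and are not independent.

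Mrpl53, at the base of the stalk, needs separate treatment because its fold change rests on 1 library. The expressed model lies on rn6 chromosome 4, 113942041 to 113942674, plus strand. It had 31, 19, 19 and 23 counts in circNrxn3 siRNA replicates 1, 2, 3 and 4, against 26, 26, 730 and 31 counts in scrambled siRNA replicates 1, 3, 4 and 5. Scrambled siRNA replicate 4 alone was high, and the other 7 libraries lay close together. The log2 fold change was −3.09 (standard error 1.21, unadjusted p = 0.0343, edgeR adjusted p = 0.833), and −0.36 without that library.

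Some genes beside it also had far higher counts in a few libraries, and those were not the library high for Mrpl53. Pcgf1, a Polycomb group subunit, had 7, 122, 8 and 8 counts in circNrxn3 siRNA replicates 1, 2, 3 and 4, against 308, 7, 10 and 12 counts in scrambled siRNA replicates 1, 3, 4 and 5. Wbp1 had 30, 378, 27 and 175 counts in circNrxn3 siRNA replicates 1, 2, 3 and 4, against 13, 25, 36 and 36 counts in scrambled siRNA replicates 1, 3, 4 and 5. Ino80b, of the INO80 chromatin remodeller, had 564, 53, 280 and 40 counts in circNrxn3 siRNA replicates 1, 2, 3 and 4, against 46, 58, 36 and 50 counts in scrambled siRNA replicates 1, 3, 4 and 5. Ccdc142 was highest in circNrxn3 siRNA replicate 4 at 113 counts. Dqx1 and Mogs, also beside it, had narrower ranges over the 8 libraries, 32 to 81 and 8 to 27 counts. These neighbours were chosen after their values were seen, and none shared its high library with Mrpl53.

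**Figure D5:**
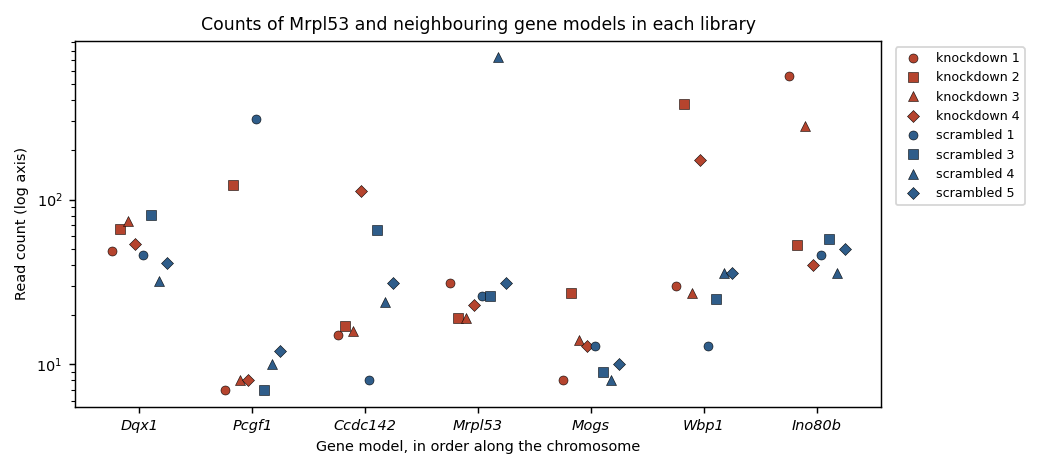
Read counts (log axis) in each of the 8 libraries for Mrpl53 and 6 neighbouring gene models with counts in most libraries, in their order along the chromosome, with circNrxn3 siRNA libraries in red and scrambled siRNA libraries in blue. Mrpl53 reaches 730 counts in scrambled siRNA replicate 4, while Pcgf1, Ccdc142, Wbp1 and Ino80b have their high values in other libraries.

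A second Mrpl53 model lies 865091 bp away and had 0 counts in all 8 libraries, as did the models next to it. RefSeq on GRCr8 has 1 Mrpl53 entry. Mrpl36, a zinc-binding protein of bacterial descent, had the same layout. Its model on rn6 chromosome 1 at 32570296 to 32570589 had 10, 27, 31 and 65 counts in circNrxn3 siRNA replicates 1, 2, 3 and 4, against 21, 15, 83 and 12 counts in scrambled siRNA replicates 1, 3, 4 and 5. The other model, 1307830 bp away, had 1 count in all. The 4 models of Mrpl36 and Mrpl53 are reported as uncertain, since near-identical copies in the assembly could split or lose reads. The models at 0 and 1 counts are the 2 members that did not pass the filter on low counts.

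Other genes of the ribosome stand outside the rule by symbol alone. The rows written mrpl9, mrpl11 and mrpl24 in lower case had log2 fold changes of −0.09, −0.06 and −0.04, and Mrp63, which encodes human MRPL57's counterpart, was at −0.17 (standard error 0.10). LOC100359687, annotated as similar to Mrpl1, was at −0.90 (standard error 0.38, edgeR adjusted p = 0.833), with 1852 counts in all, and could share reads with Mrpl1. Mrpl1 itself measured 2.54, 3.46, 0.360 and 3.09 CPM in circNrxn3 siRNA replicates 1, 2, 3 and 4, against 3.04, 1.64, 2.53 and 1.33 CPM in scrambled siRNA replicates 1, 3, 4 and 5, so the groups overlapped at low levels. Ribosomal proteins under other symbols (Dap3, Chchd1, Ptcd3, Gadd45gip1) had 3 of 4 below 0, with Gadd45gip1 at −0.24 and Chchd1 at −0.08.

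Genes that build and serve the ribosome had medians nearer to 0 than its proteins. Assembly factors had 13 of 20 below 0 with a median of −0.02, including Mpv17l2 at −0.19 (standard error 0.09) and the pseudouridine synthase family member Rpusd3 at −0.24 (standard error 0.12). Translation factors and messenger stabilisers had 9 of 16 below 0 with a median of −0.02. Slirp, the partner of Lrpprc in holding mitochondrial messages, was at −0.30 (standard error 0.12), and Taco1, a translational activator of the complex IV subunit COX1 in human cells, at −0.43 (standard error 0.19). Mitochondrial tRNA synthetases had 7 of 19 below 0 with a median of 0.03, with Lars2 at 0.29 (standard error 0.17) and Iars2 at 0.13 (standard error 0.08). None of these genes was called by edgeR, and differences between lists were not tested.

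Genes for replication and transcription of the mitochondrial genome had 6 of 8 below 0 (median −0.04), with Polg, the DNA polymerase, at 0.11 (standard error 0.12) and Tfb2m, a transcription factor, at 0.08 (standard error 0.08). Nuclear regulators of mitochondrial genes had 4 of 9 below 0 (median 0.06). Esrra, a nuclear receptor, was at −0.20 (standard error 0.12), and Gabpa, the DNA-binding subunit of the ETS factor GABP, at 0.18 (standard error 0.12). None was called.

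Other short, abundant gene families had medians further below 0 than the mitochondrial ribosome. Cytosolic ribosomal proteins had 88 of 101 below 0 with a median of −0.17, and nuclear genes for oxidative phosphorylation 73 of 86 with a median of −0.10. Transcripts of the mitochondrial genome, the messages this ribosome reads, had 11 of 13 below 0 with a median of −0.17, and Mt-cox3 was at −0.28 (standard error 0.11). They took 10.2% ± 0.961 of counts in circNrxn3 siRNA animals and 11.4% ± 0.813 in scrambled siRNA animals (SD, n = 4 each; exact 2-sided permutation p = 0.2). No gene of these families was called, and the families share the libraries with the members. Their median lengths were 636 bp, 789.5 bp and 784 bp, in the order given here, against 1110 bp for the members. The part of length in these medians was not tested.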

How the data were processed

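Messenger RNA of rat orbitofrontal cortex was measured in 8 libraries, 4 per siRNA group, made by poly-T selection and a strand-marking method per the labels' protocols. The deposited table holds read counts per gene on rn6 with no normalization, and featureCounts 1.5.0-p3, HISAT2 2.0.5, fastp and StringTie 1.3.3b are listed, without settings, in the submitters' processing notes. The authors also deposited FPKM, used here for levels and as an alternative. Counts were fitted with edgeR 4.0.16 (limma 3.58.1, DESeq2 1.42.0, R 4.3.3) after filterByExpr with a minimum count of 10, TMM scaling and the robust quasi-likelihood F test without covariates. P-values were 2-sided and Benjamini-Hochberg adjusted over 16573 genes, with a threshold of 0.05. CPM were scaled with the TMM factors, standard errors were taken as the log2 fold change over the root of its F value, and promoters were searched with Python 3.11.15. Total counts were 27589883 to 35221782 per library. Replicates of a group differed beyond sampling noise (23.2 to 47.4 as chi-square over its degrees of freedom), so each animal is 1 replicate. P-values therefore rest on the spread between animals, which the labels name as biological replicates.

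Tested on simulated data over 16573 genes for this comparison, the fit recovered 3.6% of changes of 25%, 25.2% of 1.5-fold, 64.4% of 2-fold and 87.2% of 4-fold changes (250 genes per size over 5 sets), with 36 false among 487 calls and 0 calls in a set without change. Members, gene lists and tests were chosen with earlier results of these data known. Members named are the 8 with the smallest p in each subunit, the 3 highest and 3 lowest in FPKM, the most variable within groups, those that failed the filter, and the examples of smallest p in each list. Alternatives changed the scaling, filter, tool, unit, threshold, length trend, replicate block and libraries.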

Additional observations from a re-analysis of the deposited data

Results flagged for a closer look

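In 8 of 64 groups of 4 libraries tested for a single value far from the other 3, Dixon's gap test at 95% was passed, where chance gives about 1 in 20. In the circNrxn3 siRNA group, replicate 2 was low for Mrpl33 (45.8 CPM, others 55.3 to 56.0), Mrpl55 (39.5 CPM, others 42.8 to 43.2) and Mrps17 (31.3 CPM, others 40.9 to 42.4). In the scrambled siRNA group, replicate 4 was high for Mrpl17 (139 CPM, others 119 to 120.0), Mrpl36 (2.47 CPM, others 0.408 to 0.751), Mrpl53 (21.8 CPM, others 0.775 to 1.05) and Mrps10 (23.8 CPM, others 11.6 to 13.7). Scrambled siRNA replicate 1 was low for Mrpl54 (84.2 CPM, others 101 to 104). The members share libraries, so these values are not independent of each other. The genes were also named in part for small p or large spread in the same libraries, so the rate of 1 in 20 need not hold for them.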

How the results depend on the processing

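Members called numbered 0 in both subunits under all 24 alternatives run, and the median log2 fold change of each subunit stayed below 0 in all 23 that give one. Genes called over the whole table numbered 0 except with DESeq2 (18), without the 3 libraries lowest in long messages (3) and without circNrxn3 siRNA replicate 2 or 3 (1 each), so that leaving out 1 library gave 0 to 1. Leaving out 1 library moved the median between −0.12 and −0.04 in the large subunit and between −0.14 and −0.03 in the small subunit. The other alternatives gave −0.10 to −0.03 and −0.09 to −0.01, nearest to 0 without those 3 libraries. The cause was not tested. Both groups hold replicate numbers 1, 3 and 4, and deviations of same-numbered libraries correlated at 0.37, 0.30 and 0.087. The labels do not say that these numbers pair animals, so the main fit had no block on them. A replicate block on them called 0 genes, with 1692 at an unadjusted p under 0.05 against 508 in the same 6 libraries without it, an alternative chosen after seeing the data, and the medians under the block were −0.06 and −0.05. For numbers 1 and 3, each library's best partner carried its own number. For number 4 this held for the circNrxn3 siRNA library, but the scrambled siRNA library's best partner was circNrxn3 siRNA replicate 3. Whether the numbers mark pairs or shared handling was not tested. Among the named members, which were uncalled under every alternative with an adjusted p, 32 values under an alternative had the opposite sign to the reported one, 9 of them for Mrpl1. In the simulated data 3.6% of changes of 25% were recovered. That simulation ran over all 16573 genes tested, whose median level was 5.43 FPKM against 32.6 FPKM for the members tested. Its smallest change, 25%, was larger than that of any single-model member. Recovery at the members' own levels and sizes was not measured, and 0 calls does not mean no difference.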
